A study of Mus musculus with 8 samples.

Results

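The genes described here encode the enzymes that make and break down prostaglandins and leukotrienes. They were chosen by name, as probe sets whose single gene symbol in the platform annotation is Ptgs1, Ptgs2, Ptges, Hpgds, Hpgd, Alox5, Alox5ap, Ltc4s, Lta4h or Alox15. Of these 10 genes, 9 had such a probe set, each with 1, among 19938 gene symbols in all. Ptgs1 is not analysed here.

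Total RNA of mouse cells of the strain C57BL/6 was hybridised to 8 Affymetrix arrays, 2 for each of 4 groups. One group carried the vector alone (empty vector) and one the whole NUP98-HOXA9 fusion, while delFG1 and delFG2 carried forms of it with a deletion. The fusion arises in leukaemia and puts FG (phenylalanine-glycine) repeats of NUP98, a protein of the nuclear pore, next to the homeodomain with which HOXA9 binds DNA. The study asked which genes depend on the NUP98 portion. The sources used here do not give the residues removed in each mutant, the kind of cell or the promoter of the vector. The labels number the arrays of each group 1 and 2 without saying whether separate cultures lay behind them, so the p-values reflect the spread of these samples alone, and that spread may be technical.

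Eicosanoids are signalling lipids made from arachidonic acid that phospholipases release from membranes. Cyclooxygenases (Ptgs1 and Ptgs2) turn it into a precursor from which terminal synthases such as Ptges and Hpgds make individual prostaglandins. Hpgd oxidises prostaglandin E and related prostaglandins into inactive products. In the other branch Alox5, helped by the membrane protein Alox5ap, makes an unstable epoxide that Lta4h converts to leukotriene B and Ltc4s joins to glutathione, and myeloid cells, mast cells and eosinophils are known sources of these lipids.

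Values below are log2(intensity + 1), from the deposited intensities. The median intensity of the arrays lay between 80.7 and 83.2, and the 2 arrays of a group correlated at 0.995 to 0.996 over probe sets. Group means were compared with limma, and p-values were adjusted by Benjamini-Hochberg over all 21789 probe sets with 1 gene symbol, with a threshold of 0.05. Arrays with the same number deviated together from their group means (r = 0.401 to 0.640 over probe sets in the 6 pairs of groups), and a second fit therefore took the array number as a block. No enzyme gene passed without the block in any of the 6 comparisons, and "rose" or "fell" below means past the threshold with the block. The comparisons with the empty vector share its 2 arrays. A lower level in bulk RNA can come from fewer cells of a type or from less RNA per cell, which cannot be told apart.

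Hpgd had the widest range of the 9 genes, and it was the enzyme gene that rose with the fusion. It encodes the dehydrogenase that inactivates prostaglandin E and related prostaglandins. Its probe set (10571840) read 5.41 and 5.53 with the empty vector, 7.17 and 6.42 with NUP98-HOXA9, 8.10 and 6.86 with delFG1, and 6.40 and 5.37 with delFG2, in the order of array numbers 1 and 2. Both NUP98-HOXA9 arrays and both delFG1 arrays were above the empty vector, while the delFG2 arrays lay on either side of it. The empty vector arrays and delFG2 array 2 were dim, near percentile 25 of mean level over tested probe sets (5.42, median 6.73). These values carry no background estimate, so the fold changes of Hpgd start from a level that may be near background.

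The group means of Hpgd were 5.47 ± 0.08 with the empty vector, 6.80 ± 0.52 with the fusion, 7.48 ± 0.87 with delFG1 and 5.88 ± 0.73 with delFG2 (SD, n = 2). Hpgd rose by 1.33 with NUP98-HOXA9 (2.51-fold, SE 0.24, 95% interval 0.80 to 1.86, limma adjusted p = 0.00802 with the block and 0.377 without it). It rose by 2.01 with delFG1 (4.03-fold, 95% interval 1.48 to 2.54, limma adjusted p = 0.000691 with the block and 0.171 without it). With delFG2 the difference from the empty vector was 0.42 (95% interval -0.12 to 0.95, limma adjusted p = 0.604 with the block): array 1 was higher than its empty vector counterpart and array 2 was lower, by -0.16.

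Between the 2 mutants, Hpgd was 1.59 lower with delFG2 than with delFG1 (-1.59, 3.02-fold, 95% interval -2.13 to -1.06, limma adjusted p = 0.0197 with the block and 1 without it). The difference was -1.69 for array number 1 and -1.49 for array number 2, nearly the same size in each. From the full-length fusion, delFG1 differed by 0.68 (95% interval 0.15 to 1.21, limma adjusted p = 1) and delFG2 by -0.91 (-1.44 to -0.38, limma adjusted p = 0.204), neither past the threshold. In order of level the groups ran delFG1, NUP98-HOXA9, delFG2 and empty vector. Arrays overlapped between delFG1 and NUP98-HOXA9 and between delFG2 and the empty vector, and NUP98-HOXA9 and delFG2 were separated only narrowly, by arrays at 6.42 and 6.40.

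The delFG1 call of Hpgd against the empty vector held with any 1 array left out, and the others did not. Without either NUP98-HOXA9 array the difference from the empty vector was 1.32 or 1.34, no longer past the threshold (limma adjusted p = 0.127 and 0.115 with the block). The difference between the mutants lost its call without either delFG2 array, without delFG1 array 1 and without either NUP98-HOXA9 array (-1.25 to -1.80, limma adjusted p = 0.0805 to 0.271). Without empty vector array 1 or 2, in contrast, the difference of delFG2 from the full-length fusion passed, at -0.91 in each case. The difference of delFG2 from the empty vector was 0.98 and passed without empty vector array 2. Without empty vector array 1 it was -0.14, of the opposite sign, and did not pass.

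The 250 bases before the transcription start of Hpgd (RefSeq, GRCm38.p6, chr8:56294302-56294551, plus strand) are printed because Hpgd was the gene that moved up, and those of Hpgds (chr6:65144731-65144980, minus strand), Ptges (chr2:30903298-30903547, minus strand) and Ltc4s (chr11:50238533-50238782, minus strand) because these moved down by similar amounts. All are written 5′ to 3′ on the strand of the gene. Capitals mark matches, on either strand, to 6 short motifs chosen after the windows had been read.
Hpgd: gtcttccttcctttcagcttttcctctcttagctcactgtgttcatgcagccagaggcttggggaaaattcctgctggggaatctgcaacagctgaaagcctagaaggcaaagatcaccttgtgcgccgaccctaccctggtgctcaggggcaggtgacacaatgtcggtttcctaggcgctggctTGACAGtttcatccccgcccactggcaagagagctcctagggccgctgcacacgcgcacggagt
Hpgds: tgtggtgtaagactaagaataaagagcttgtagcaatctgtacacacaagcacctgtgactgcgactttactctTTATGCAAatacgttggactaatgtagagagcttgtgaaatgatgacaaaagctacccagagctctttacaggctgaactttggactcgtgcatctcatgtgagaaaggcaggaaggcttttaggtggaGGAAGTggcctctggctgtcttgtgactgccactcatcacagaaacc
Ptges: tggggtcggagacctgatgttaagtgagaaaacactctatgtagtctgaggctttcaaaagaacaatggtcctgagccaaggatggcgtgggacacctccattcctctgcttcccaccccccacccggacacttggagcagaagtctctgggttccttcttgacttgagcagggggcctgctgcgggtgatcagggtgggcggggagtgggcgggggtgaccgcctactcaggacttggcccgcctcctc
Ltc4s: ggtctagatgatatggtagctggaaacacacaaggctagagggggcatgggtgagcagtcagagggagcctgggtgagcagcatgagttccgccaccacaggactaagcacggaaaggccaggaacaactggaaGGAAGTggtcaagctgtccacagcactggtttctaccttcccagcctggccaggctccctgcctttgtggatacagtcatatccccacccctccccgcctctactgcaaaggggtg
Hpgd held the MEIS letters TGACAG at base -64, which 15.9% of all 32851 promoter windows hold. Hpgds held GGAAGT, the core of ETS factors such as PU.1, at base -47, and Ltc4s held the same letters at base -116, as 19.7% of all windows do somewhere. The C/EBP letters TTGCNNAA, in 9.56% of windows, matched Hpgds on the reverse strand at base -176. Ptges matched none of the 6. Absent from all 4 windows were a HOX-PBX word (TGATTTAT, in 0.837% of windows), the word AGATAA read by erythroid and mast cell factors of the Gata family (9.99%), and the box TATAAA (12.4%). The promoter table held 8 of the 10 listed genes, without Alox5ap and Alox15.

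Hpgds, the synthase that makes prostaglandin D in mast cells and other blood cells, was lower in all 3 fusion groups than with the empty vector. Its probe set (10545101) read 8.27 and 8.42 with the empty vector, 7.63 and 7.69 with NUP98-HOXA9, 7.51 and 7.62 with delFG1, and 7.41 and 7.82 with delFG2. Every fusion array lay below both empty vector arrays.

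Hpgds fell by 0.68 with NUP98-HOXA9 (1.61-fold, SE 0.11, limma adjusted p = 0.00429 with the block and 0.186 without it). It fell by 0.78 with delFG1 (1.71-fold, limma adjusted p = 0.00179 with the block and 0.117 without it) and by 0.73 with delFG2 (1.65-fold, 95% interval -0.97 to -0.48, limma adjusted p = 0.0307 with the block and 0.943 without it). The fusion call was lost without NUP98-HOXA9 array 2 (-0.61, limma adjusted p = 0.0875 with the block). The delFG2 call was lost without empty vector array 1, delFG2 array 1 or either NUP98-HOXA9 array (-0.57 to -0.73, limma adjusted p = 0.0794 to 0.396). The 3 fusion groups did not differ past the threshold among themselves, with Hpgds differences of -0.09 for delFG1 and -0.04 for delFG2 from the full-length fusion (95% intervals -0.34 to 0.15 and -0.29 to 0.20).

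Ptges makes prostaglandin E, a substrate of Hpgd. It read 8.26 and 8.53 with the empty vector, 7.26 and 8.03 with NUP98-HOXA9, 7.56 and 8.03 with delFG1, and 7.57 and 8.19 with delFG2 (probe set 10481518). All fusion arrays were below the empty vector arrays, and within each group array 2 read higher than array 1.

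Ptges fell by 0.75 with NUP98-HOXA9 (1.68-fold, SE 0.12, limma adjusted p = 0.00444 with the block and 0.449 without it) and by 0.60 with delFG1 (1.52-fold, limma adjusted p = 0.0148 with the block). Its difference with delFG2 was -0.52 (95% interval -0.79 to -0.25, limma adjusted p = 0.106 with the block), past the threshold without empty vector array 2 (-0.69, limma adjusted p = 0.0133). The fusion call was lost without NUP98-HOXA9 array 1 (-0.59, limma adjusted p = 0.0996), and the delFG1 call without empty vector array 1 or either delFG1 array (-0.42 to -0.64, limma adjusted p = 0.0919 to 0.131).

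Ptgs2, the inducible cyclooxygenase at the head of the prostaglandin branch, had no call in any comparison. It read 8.02 and 8.37 with the empty vector, 8.20 and 7.95 with NUP98-HOXA9, 8.18 and 8.03 with delFG1, and 8.22 and 8.56 with delFG2 (probe set 10350516). The arrays of the empty vector overlapped those of every other group. The difference with NUP98-HOXA9 was -0.12 (95% interval -0.45 to 0.21, limma adjusted p = 0.779 with the block).

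**Figure D1:**
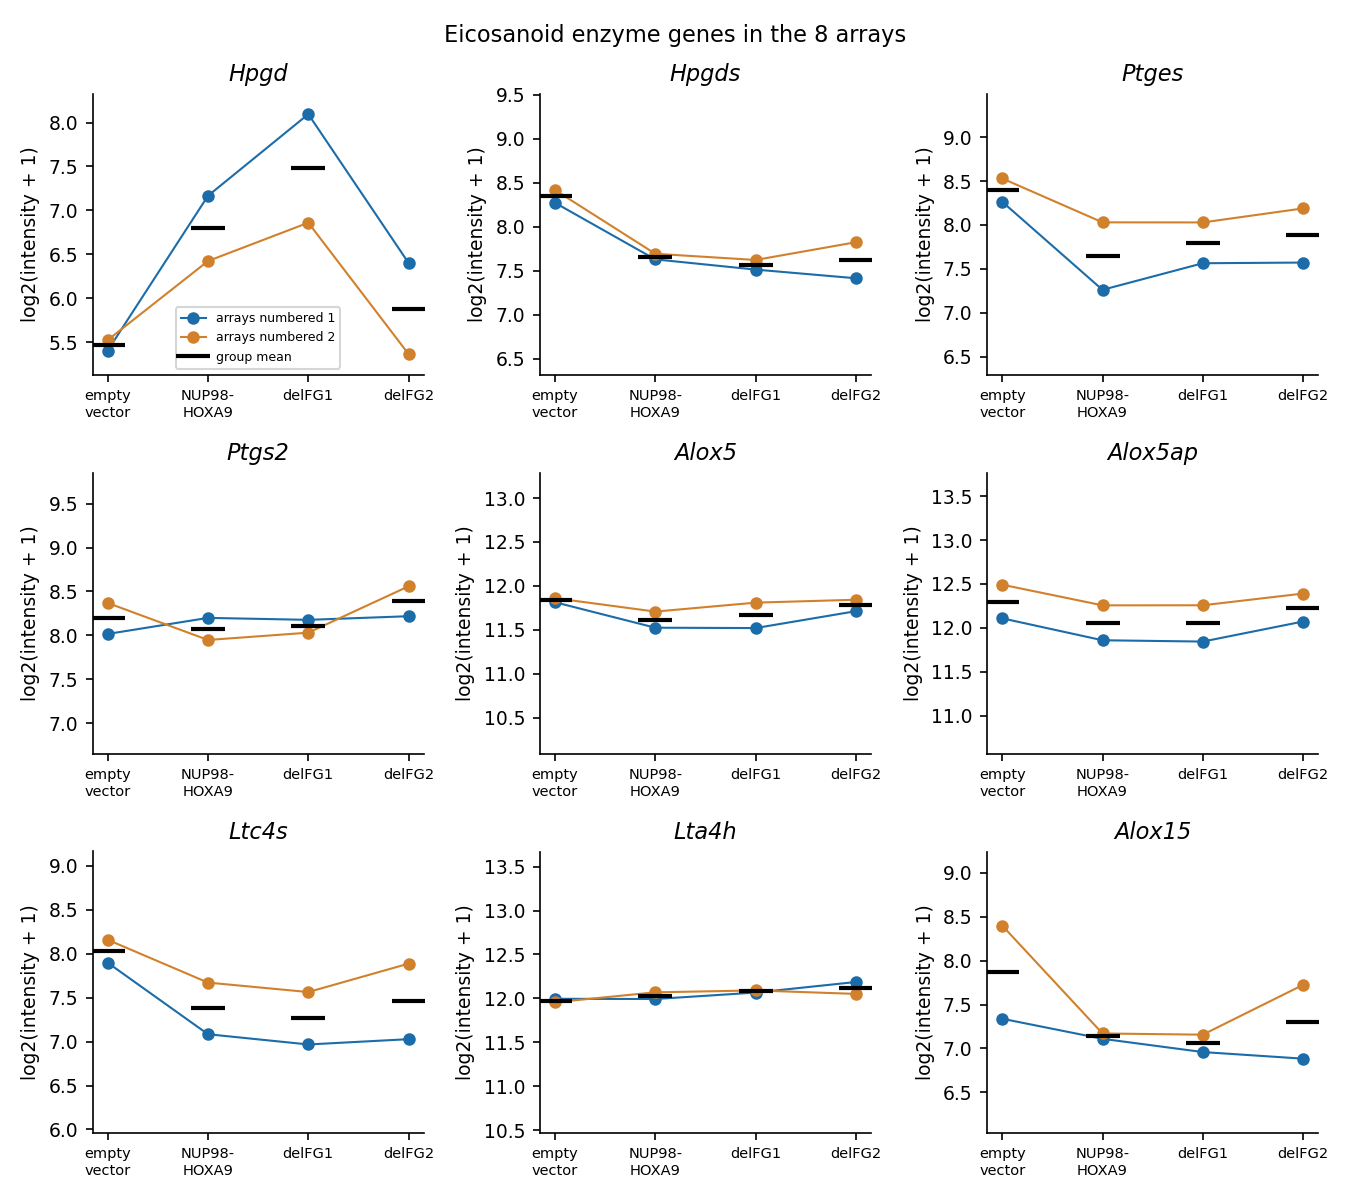
Level of each enzyme gene, as log2(intensity + 1), in the 8 arrays by group; lines join arrays of the same number and bars are means of 2 arrays. Hpgd is highest with delFG1, and Hpgds, Ptges and Ltc4s are lower in the fusion groups than with the empty vector. Hpgds, Ptges, Alox5, Alox5ap, Ltc4s and Alox15 read higher in arrays numbered 2 in every group.

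In the leukotriene branch, the 2 genes that act first, Alox5 and Alox5ap, differed by little between groups. Alox5, the lipoxygenase that starts the pathway, read 11.81 and 11.86 with the empty vector, 11.52 and 11.71 with NUP98-HOXA9, 11.52 and 11.81 with delFG1, and 11.71 and 11.84 with delFG2 (probe set 10547153). Its NUP98-HOXA9 and delFG1 arrays were just below those of the empty vector, those of delFG2 overlapped them, and the difference of -0.22 did not pass (95% interval -0.36 to -0.08, limma adjusted p = 0.0697 with the block). It passed with empty vector array 2 left out, in the comparison with NUP98-HOXA9 (-0.30, limma adjusted p = 0.00903) and with delFG1 (-0.25, against -0.17 with all arrays, limma adjusted p = 0.0246 and 0.169). The comparison with NUP98-HOXA9 also passed after median centring (-0.24, limma adjusted p = 0.0416) and when probe sets under the median level were left out (limma adjusted p = 0.0398).

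Alox5ap, which presents arachidonic acid to Alox5, read 12.11 and 12.49 with the empty vector, 11.86 and 12.26 with NUP98-HOXA9, 11.85 and 12.26 with delFG1, and 12.07 and 12.39 with delFG2 (probe set 10527638). The groups overlapped, but between arrays of the same number the fusion was lower by a nearly constant amount, -0.25 and -0.24. Alox5ap fell by 0.24 with NUP98-HOXA9 (1.18-fold, limma adjusted p = 0.0152 with the block and 0.765 without it) and by 0.25 with delFG1 (1.19-fold, limma adjusted p = 0.0130 with the block). Both calls were lost without either array of the fusion form compared (-0.23 to -0.27, limma adjusted p = 0.0972 to 0.257). With delFG2 its difference was -0.07 (95% interval -0.18 to 0.04).

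Ltc4s, the synthase of cysteinyl leukotrienes, read 7.90 and 8.16 with the empty vector, 7.08 and 7.67 with NUP98-HOXA9, 6.97 and 7.56 with delFG1, and 7.03 and 7.89 with delFG2 (probe set 10385583). No fusion array reached the lower of the empty vector arrays, though delFG2 array 2 came within 0.01 of it. Ltc4s fell by 0.65 with NUP98-HOXA9 (1.57-fold, limma adjusted p = 0.0147 with the block and 0.559 without it) and by 0.76 with delFG1 (1.70-fold, limma adjusted p = 0.00598 with the block). The delFG2 difference was -0.57 (95% interval -0.86 to -0.28, limma adjusted p = 0.101 with the block). The fusion call was lost without either NUP98-HOXA9 array or empty vector array 1 (-0.44 to -0.66, limma adjusted p = 0.128 to 0.154), the delFG1 call was lost without empty vector array 1 or delFG1 array 1 (-0.55 and -0.75, limma adjusted p = 0.0517 and 0.0595), and delFG2 passed without empty vector array 2 (-0.78, limma adjusted p = 0.0102).

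Lta4h, the hydrolase that makes leukotriene B, had the group means closest to each other of the 9 genes. It read 12.00 and 11.96 with the empty vector, 11.99 and 12.07 with NUP98-HOXA9, 12.07 and 12.09 with delFG1, and 12.19 and 12.05 with delFG2 (probe set 10365749). Its difference with the fusion was 0.06 (95% interval -0.07 to 0.19), so an effect of the size seen for Ltc4s lies outside that interval.

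Alox15, a lipoxygenase that makes other oxidised fatty acids and is typical of eosinophils and some macrophages, varied more within the empty vector group than any other of the 9 genes. It read 7.34 and 8.40 with the empty vector, 7.11 and 7.17 with NUP98-HOXA9, 6.96 and 7.16 with delFG1, and 6.88 and 7.72 with delFG2 (probe set 10387855). The NUP98-HOXA9 and delFG1 arrays were below both empty vector arrays, and most of the distance came from empty vector array 2.

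The Alox15 difference with NUP98-HOXA9 was -0.23 for array number 1 and -1.23 for array number 2, -0.73 on average (limma adjusted p = 0.0637 with the block). It passed without empty vector array 1 (-1.07, limma adjusted p = 0.00980) and without either delFG1 array (-0.73, limma adjusted p = 0.0390 and 0.0389), and when probe sets under the median level were left out (limma adjusted p = 0.0398). Alox15 fell by 0.81 with delFG1 (1.75-fold, limma adjusted p = 0.0425 with the block and 0.503 without it). That call was lost without empty vector array 2, delFG1 array 2 or either delFG2 array (-0.46 to -0.81, limma adjusted p = 0.0630 to 0.296).

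Counted over the 9 genes, 1 rose (Hpgd) and 4 fell (Hpgds, Ptges, Ltc4s, Alox5ap) with NUP98-HOXA9 against the empty vector with the block. Of all 21789 probe sets, 6.61% passed in this comparison with the block, 2.18% higher and 4.43% lower, and 0.124% passed without it. Without the block 0 of the 9 passed in limma. An unadjusted p under 0.05 was found for 3 of the 9 genes and for 2078 of all 21789 probe sets. The median difference of the 9 was -0.24 against 0.02 for all probe sets. The arrays of the 2 groups did not overlap for 6 of the 9 genes, against 39.1% of all probe sets.

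With delFG1 against the empty vector, 1 of the 9 rose (Hpgd) and 5 fell (Hpgds, Ptges, Ltc4s, Alox5ap, Alox15) with the block. The background there was 6.12% of all probe sets, 1.94% higher and 4.18% lower, and 0.129% without the block, where limma called 0 of the 9. Without the block 4 of the 9 genes and 2093 of all 21789 probe sets had an unadjusted p under 0.05. The groups did not overlap for 7 of the 9 genes, against 40.8% of all probe sets.

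With delFG2 against the empty vector only Hpgds of the 9 genes passed with the block, against a background of 0.505% of all probe sets. Without the block 0 of the 9 passed in limma, against 0.00459% of all probe sets. There 1 of the 9 genes and 965 of all 21789 probe sets had an unadjusted p under 0.05. Of the 9 genes 4 did not overlap with the empty vector, against 29.3% of all probe sets.

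Between the full-length fusion and the mutants, limma called none of the 9 genes in either fit, and none had an unadjusted p under 0.05 without the block. The background was low in these comparisons too, 0.078% of probe sets for delFG1 and 0.468% for delFG2 with the block, and 0.00918% and 0.0275% without it. Of all 21789 probe sets, 451 for delFG1 and 602 for delFG2 had an unadjusted p under 0.05 without the block. With delFG2 against NUP98-HOXA9 the arrays did not overlap for 3 of the 9 genes, Hpgd, Ptgs2 (0.31, 95% interval -0.01 to 0.64) and Alox5 (0.16, 95% interval 0.02 to 0.30), against 5641 of all 21789 probe sets. Alox5ap, whose arrays overlapped, was 0.17 higher (95% interval 0.06 to 0.28, limma adjusted p = 0.262 with the block). Between delFG2 and delFG1, Hpgd was the 1 call among the 9 with the block, against 0.537% of all probe sets with the block and 0% without it. Without the block 1 of the 9 genes and 683 of all 21789 probe sets had an unadjusted p under 0.05.

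**Figure D2:**
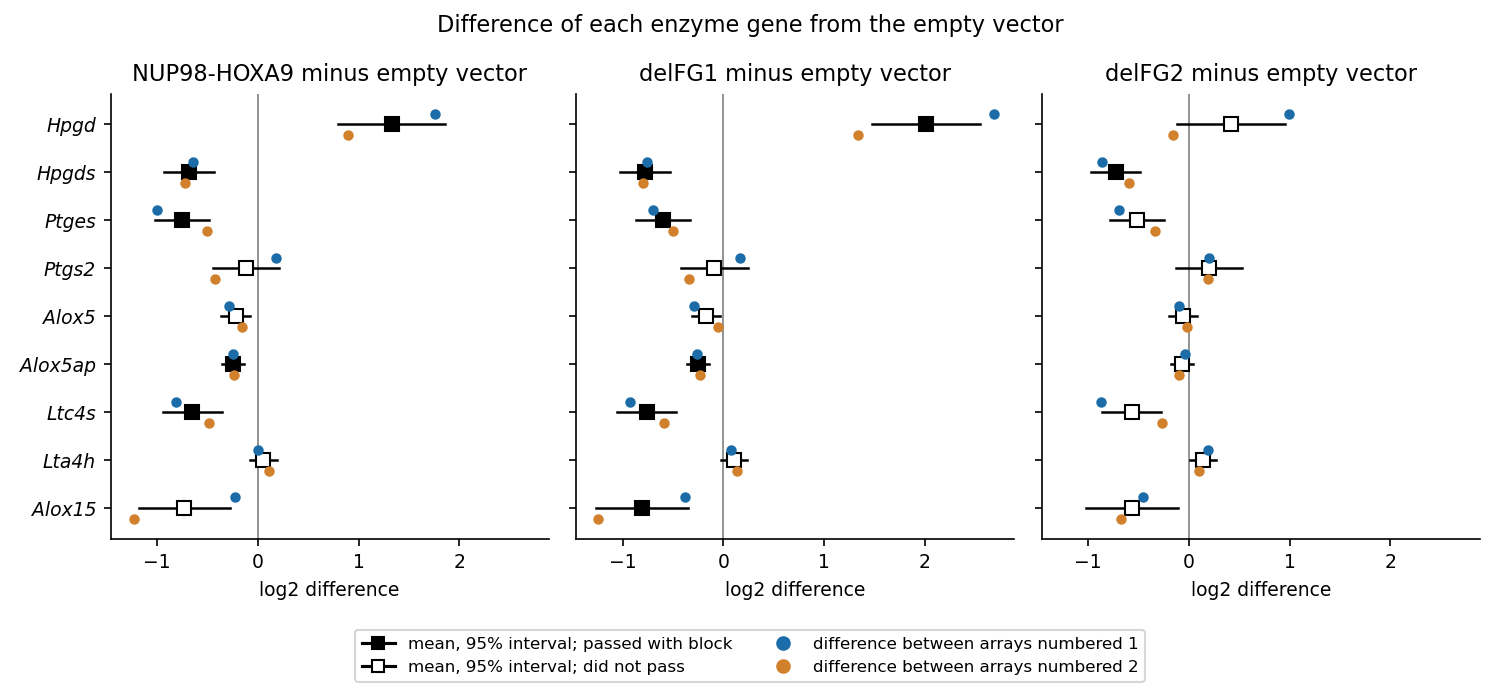
Difference of each enzyme gene from the empty vector on the log2 scale for NUP98-HOXA9, delFG1 and delFG2; squares are mean differences with 95% intervals from the fit with the block, filled where the adjusted p passed, and circles are differences between arrays of the same number. Hpgd stands to the right with NUP98-HOXA9 (1.33) and delFG1 (2.01) and spans 0 with delFG2 (0.42), while Hpgds lies between -0.78 and -0.68 in all 3 panels.

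Most of these genes also differed by array number, although the arrays numbered 1 and 2 overlapped over the 4 groups for all but Alox5ap. With arrays numbered 2 compared with those numbered 1 over all groups, 5 of the 9 were higher (Ltc4s by 0.58, Alox15 by 0.54, Ptges by 0.53, Alox5ap by 0.38, Alox5 by 0.16) and Hpgd was lower by 0.72 (-0.72; limma adjusted p = 0.000162 for Alox5ap to 0.0424 for Alox5). Over all probe sets 11.2% passed, 6.43% higher and 4.75% lower. Hpgds (0.18, limma adjusted p = 0.179), Ptgs2 (0.07) and Lta4h (-0.02) did not pass. The labels do not say what the numbers stand for.

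The blocked fit takes the number difference to be the same in every group, which held for some genes more closely than for others. For Alox5ap it was 0.38, 0.40, 0.41 and 0.32 with the empty vector, NUP98-HOXA9, delFG1 and delFG2. For Hpgd it was 0.12 with the empty vector but -0.74, -1.24 and -1.04 in the 3 fusion groups, and for Alox15 it was 1.06, 0.06, 0.20 and 0.84. Hpgd thus read higher in array 1 only where a form of the fusion was present, and that difference was not tested.

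**Figure D3:**
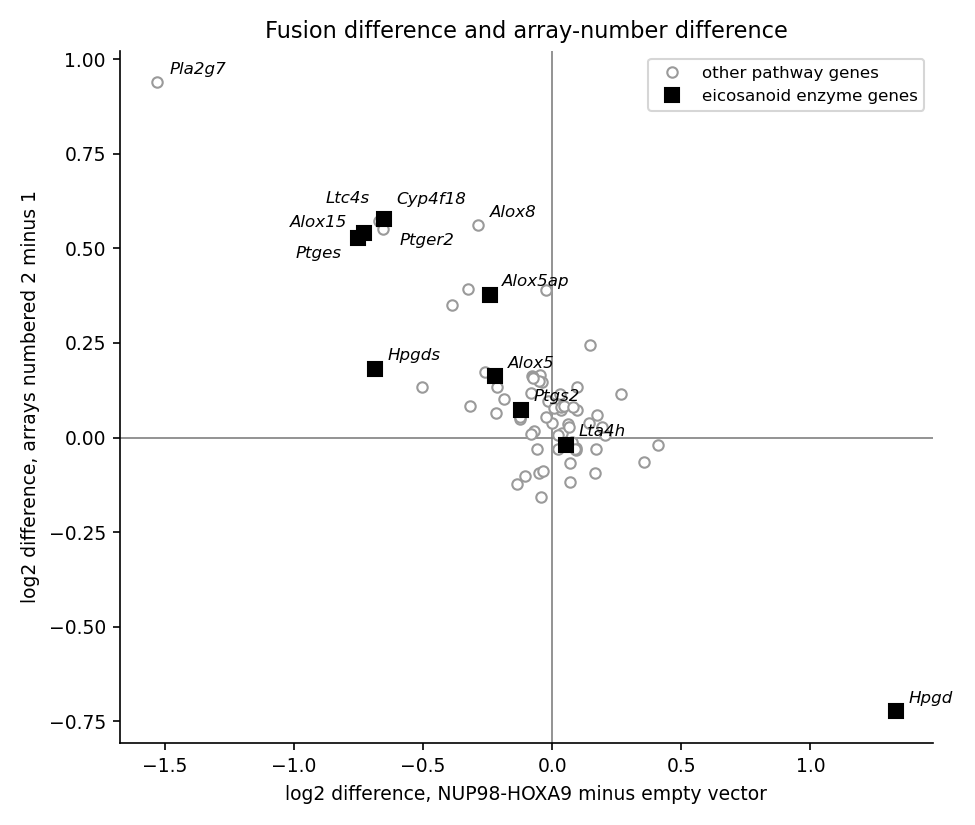
Log2 difference of NUP98-HOXA9 from the empty vector (horizontal) and of arrays numbered 2 from arrays numbered 1 (vertical) for the 9 enzyme genes (squares) and 63 other pathway genes (circles), both from the same 8 arrays. Hpgd lies alone at the lower right (1.33, -0.72), and Ltc4s, Ptges and Alox15 lie together at the upper left near (-0.7, 0.5), beside Cyp4f18 and Ptger2.

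Of 68 further genes of the pathway, from phospholipases to receptors and transporters, 63 were tested. Without the block limma called 0 of the 63 in each of the 6 comparisons between groups, with 7 at an unadjusted p under 0.05 for NUP98-HOXA9 against the empty vector and 14 for delFG1 against the empty vector (2078 and 2093 of all 21789 probe sets). With the block 5 of the 63 fell and 1 rose with NUP98-HOXA9, against 4.43% and 2.18% of all probe sets, and 6 fell and 2 rose with delFG1, against 4.18% and 1.94%. The median differences of the 63 were both -0.01. With NUP98-HOXA9, 6 of the 63 passed in either direction, where 6.61% of all probe sets did. With delFG1, 8 of the 63 passed in either direction, a larger share than the 6.12% of all probe sets. Whether the pathway stands out in either comparison was not tested. None of the 63 passed in the other 4 comparisons with the block. Without it, 1 to 5 of the 63 had an unadjusted p under 0.05 there, against 451 to 965 of all 21789 probe sets.

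Pla2g7, which hydrolyses platelet-activating factor and oxidised phospholipids, moved most. It read 9.75 and 11.03 with the empty vector, 8.65 and 9.08 with NUP98-HOXA9, 8.41 and 9.41 with delFG1, and 9.17 and 10.22 with delFG2. It fell by 1.53 with the fusion (2.88-fold, limma adjusted p = 0.000263 with the block and 0.365 without it) and by 1.48 with delFG1. The other 15 genes placed with it, mostly phospholipases such as Pla2g4a, which releases arachidonate, did not pass in either comparison.

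Among the enzymes of cysteinyl leukotriene processing, Ggt5, which removes glutamate from leukotriene C, fell by 0.51 with NUP98-HOXA9 (limma adjusted p = 0.0178 with the block), and Dpep2, a dipeptidase of the next step, fell by 0.55 with delFG1. Dpep2 has a second probe set, which fell by 0.64 with delFG1 as well. Of the genes of inactivation and oxidation, Cyp4f18, a hydroxylase of leukotriene B in neutrophils, fell by 0.67 with NUP98-HOXA9 and by 0.74 with delFG1. Cyp4f16, of the same P450 family, rose by 0.41 and 0.62 in these comparisons (limma adjusted p = 0.0415 and 0.00466 with the block). Its arrays read 8.82 and 8.98 with the empty vector against 9.25 and 9.37 with NUP98-HOXA9, 9.59 and 9.46 with delFG1, and 9.34 and 9.12 with delFG2, so every fusion array was above the empty vector.

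Of 9 prostanoid receptors, 2 fell with NUP98-HOXA9 and 2 with delFG1, where 4.43% and 4.18% of all probe sets fell. Ptger2, a receptor of prostaglandin E, fell by 0.65 and 0.70, and Ptgir, the prostacyclin receptor, fell by 0.33 and 0.39. Alox8, another lipoxygenase, fell by 0.70 with delFG1, and the organic anion transporter Slco3a1 rose by 0.37. None of 5 receptors of leukotrienes and lipoxins passed, nor did any of 7 other prostanoid synthases by their brightest probe set. Ptges3, a cochaperone also named for prostaglandin synthesis, has 3 probe sets that disagreed. With delFG1 the dimmest was higher by 0.36 (limma adjusted p = 0.0358 with the block), and the brightest (0.01) and the other (0.02, limma adjusted p = 0.929) did not pass. With NUP98-HOXA9 the dimmest was higher by 0.33 (limma adjusted p = 0.0496) and the other by 0.10 (limma adjusted p = 0.421).

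In the comparisons with no call, the genes with the smallest p were Ptgdr (-0.16), Ptger3 (-0.23), Pla2g2e (-0.21) and Slco3a1 (0.20) for delFG1 against the full-length fusion, and Ltb4r1 (0.39), Ptgdr (-0.17), Ptgfr (0.19) and Ggt5 (0.28) for delFG2. Against the empty vector, delFG2 had Cyp4f16 (0.33), Dpep1 (0.24), Ptger1 (-0.26) and Mgst2 (0.30), and against delFG1 it had Ephx1 (0.38), Slco3a1 (-0.31), Ltb4r1 (0.35) and Cyp4f16 (-0.29). Alox12 (-0.32) in the fusion and Ptger3 (-0.35) in the delFG1 comparison with the empty vector were also among the smallest and did not pass. By array number 8 of the 63 genes passed, where 11.2% of all probe sets passed in either direction. All 8 were higher in arrays numbered 2, against 6.43% of all probe sets that passed as higher. Whether the pathway stands out by array number was not tested. The 8 were Pla2g7 (0.94), Cyp4f18 (0.57), Alox8 (0.56), Ptger2 (0.55), Ptgir (0.39), Mgst1 (0.39), Dpep2 (0.35, but -0.09 for its second probe set) and Aloxe3 (0.25).

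**Figure D4:**
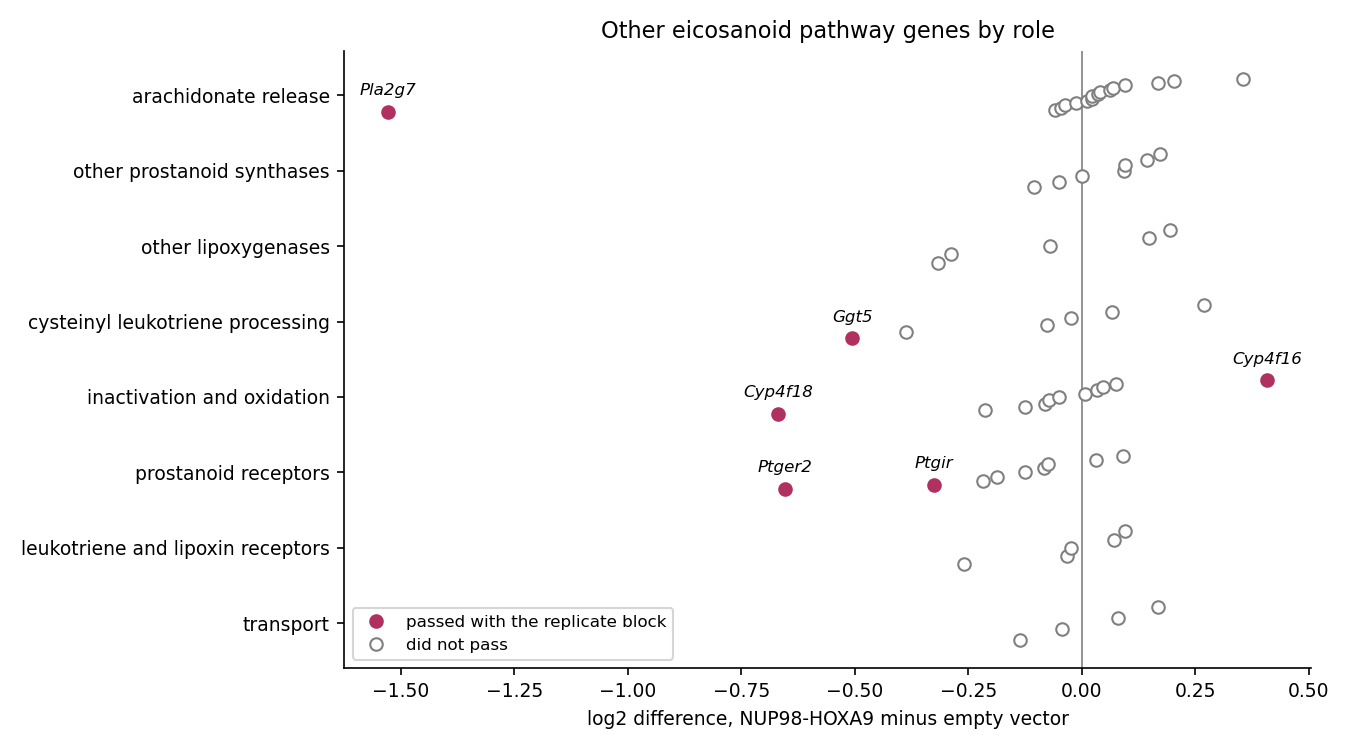
Log2 difference of NUP98-HOXA9 from the empty vector for 63 other eicosanoid pathway genes by role, with filled points for the 6 that passed with the block. Most genes lie within 0.25 of 0, and Pla2g7 lies farthest out at -1.53.

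Markers of the cell types known to make these lipids also differed between the groups. With NUP98-HOXA9 against the empty vector and the block, 8 of 10 monocyte and macrophage markers fell, as did 6 of 12 neutrophil, 3 of 6 eosinophil (Epx, Prg2 and Ear6) and 4 of 11 mast cell and basophil markers, and 4 of 5 megakaryocyte markers, where 4.43% of all probe sets fell. The fifth megakaryocyte marker, Gp9, rose by 0.37. Among the mast cell genes the receptor chain Fcer1a fell by 1.31 and the protease Cpa3 by 0.50, while Ms4a2, another chain of the same receptor, rose by 0.48. With delFG1 the counts of markers that fell were 9, 5, 3, 7 and 4 in the same order, against 4.18% of all probe sets, and 1 neutrophil marker (Elane, 0.19) rose. Without the block, 1 megakaryocyte marker was called lower with NUP98-HOXA9 and 1 with delFG1. No other marker passed without it in any comparison between groups. With delFG2 against the empty vector and the block, 3 monocyte and macrophage markers fell, where 0.505% of all probe sets passed. None of the other lists had a call there. Against NUP98-HOXA9 (0.468% of all probe sets), 3 neutrophil, 2 monocyte, 1 mast cell, 1 eosinophil and 1 megakaryocyte marker were higher with delFG2. Against delFG1 (0.537%), 3 neutrophil, 2 monocyte, 3 mast cell, 2 eosinophil and 2 megakaryocyte markers were higher with delFG2. No marker was lower in either comparison.

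The summed intensity of the 10 monocyte and macrophage markers was 21648 to 26937 with the empty vector, 16281 to 18907 with NUP98-HOXA9, 15359 to 18617 with delFG1 and 17989 to 22432 with delFG2. That of the 6 eosinophil markers was 5830 to 11159, 4429 to 6909, 4002 to 6695 and 5256 to 9098, that of the 11 mast cell and basophil markers 14139 to 15434, 12307 to 14220, 9930 to 12195 and 13070 to 15329, and that of the 12 neutrophil markers 61749 to 71630, 52425 to 62955, 51772 to 63557 and 62547 to 69647. That of the 5 megakaryocyte markers was 2474 to 2558, 1475 to 1708, 1382 to 1438 and 2051 to 2533. Between arrays of the same number, each of these 5 sums was lower with NUP98-HOXA9 than with the empty vector. Without regard to number, only the monocyte and megakaryocyte sums of those groups did not overlap. By array number, 9 of 12 neutrophil, 7 of 10 monocyte, 3 of 6 eosinophil and 4 of 11 mast cell markers were higher in arrays numbered 2, against 6.43% of all probe sets, and the neutrophil marker Mpo and the mast cell marker Kit were lower. Of 8 stromal and endothelial markers 1 rose with NUP98-HOXA9, and of 4 lymphoid markers, which summed to 137 to 147, none passed. No marker was at 0, since the lowest intensity in the table was 18.3. The part of these cell types in the enzyme differences was not tested.

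Of the 9 genes Hpgd alone had group means that spanned at least 1 on the log2 scale (2.01). Among 155 other probe sets with such a span, the 3 most correlated with Hpgd over the 8 arrays, which share groups and numbers with it, were Pfn2 (r = 0.966), a profilin that binds actin, and the glutathione transferases Gstt1 (r = 0.965) and Gstt3 (r = 0.934). Gstt1 read 6.30 and 6.45 with the empty vector, 7.47 and 7.10 with NUP98-HOXA9, 8.53 and 7.84 with delFG1, and 7.49 and 6.37 with delFG2. The 3 genes were picked for following Hpgd over these arrays, so their group order was set by the choice, and their differences are given without a test. From the empty vector, Gstt1 differed by 0.91 with NUP98-HOXA9 and 1.81 with delFG1, Pfn2 by 0.79 and 1.39, and Gstt3 by 0.57 and 1.15.

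**Figure D5:**
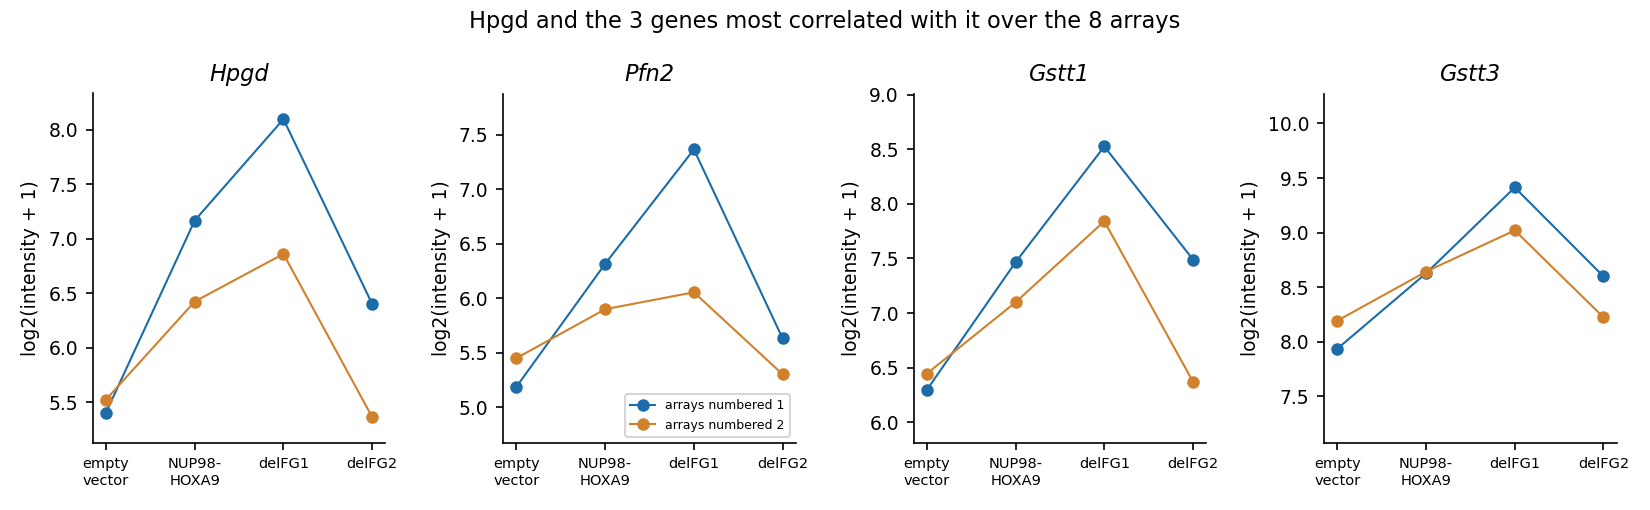
Levels, as log2(intensity + 1), of Hpgd and of the 3 genes most correlated with it in the 8 arrays by group; lines join arrays of the same number. All 4 genes are highest with delFG1, and for Hpgd, Pfn2 and Gstt1 the arrays numbered 1 are the higher ones in each fusion group.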

How the data were processed

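Per the labels' protocols, RNA was purified with an RNeasy kit and biotin-labelled with the GeneChip WT terminal labelling reagents. The authors deposited linear intensity values of 28853 probe sets for each array, while the sources used here give neither their background correction and normalisation nor the model of array. The platform annotation gave 21789 probe sets 1 gene symbol, 1621 several and 5443 none, and only the first were tested. Each value was taken as log2(intensity + 1) and fitted with limma 3.58.1 in R 4.3.3 (4 group means, intensity trend). The fit was tried on simulated data with the same array-number difference in every group. That simulation does not cover genes such as Hpgd and Alox15, whose number difference varied between groups. The 8 arrays limit the precision.

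The main fit had no block, and the fit with the array number as a block was made because same-numbered arrays deviated together. A gene with several probe sets was read by the one with the highest mean. The enzyme genes, the pathway list, the marker lists and the rules for naming genes (all enzyme genes, pathway genes that passed or had the 4 smallest p, and the 3 genes most correlated with a gene whose group means span at least 1) were chosen with earlier results of these data known. The genes most correlated with Hpgd were sought without predicted and olfactory genes. Alternatives were another pseudocount (16), median centring, quantile normalisation, a filter on dim probe sets, no intensity trend, the 2 groups alone and each array left out; those for the blocked fit were added after seeing the data.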

Additional observations from a re-analysis of the deposited data

How the results depend on the processing

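The replicate block decided every call of an enzyme or pathway gene. With it the enzyme genes called went from 0 to 5 with NUP98-HOXA9, 6 with delFG1 and 1 with delFG2 against the empty vector and 1 between the mutants, the other pathway genes from 0 to 6 (NUP98-HOXA9) and 8 (delFG1), and all probe sets from 27 to 1440, 2 to 17, 6 to 102, 28 to 1333, 1 to 110 and 0 to 117 (NUP98-HOXA9 against the empty vector, delFG1 and delFG2 against NUP98-HOXA9, delFG1 and delFG2 against the empty vector, and delFG2 against delFG1). All calls made without the block were also made with it.

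Without the block the enzyme genes stayed at 0 calls under every other alternative. The counts over all probe sets, in the same order, were 7 to 36, 1 to 4, 1 to 7, 0 to 34, 0 to 2 and 0 to 4 with each array left out. Above the median level 17 and 3 passed for NUP98-HOXA9 against the empty vector and delFG2 against NUP98-HOXA9. Without the intensity trend 3 passed for delFG2 against NUP98-HOXA9, 5 for delFG1 and 0 for delFG2 against the empty vector. With only the 2 groups compared, 1 passed for delFG1 against NUP98-HOXA9 and 2 for delFG2 against the empty vector.

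With the block, leaving out each array gave 1 to 6 enzyme genes for NUP98-HOXA9, 3 to 6 for delFG1 and 0 to 4 for delFG2 against the empty vector, 0 to 1 for delFG2 against NUP98-HOXA9, 0 to 1 between the mutants and 3 to 5 by array number. Where 1 array was left in a group, it was assumed to vary like the others. The count for delFG2 against the empty vector was 0 with quantile normalisation and 0 without the intensity trend. Between the mutants it was 0 without the trend and 0 above the median level, which removes Hpgd. By array number 3 genes were left without the trend. By gene, leaving out the trend ended the calls of Alox5ap in both comparisons, of Alox15 with delFG1, of Hpgds with delFG2 and of Hpgd between the mutants, and quantile normalisation ended those of Alox15 and Hpgds. Median centring added Alox5, and the filter on dim probe sets Alox5 and Alox15, for NUP98-HOXA9 against the empty vector. The sign of a difference changed 36 times among 804 alternative values of the fit without the block, the blocked fit itself being among these alternatives. It changed 24 times among 696 alternative values of the fit with the block. No difference that changed sign was called with all arrays or under the alternative that changed its sign. Several of these genes had calls in other comparisons. With the block, the Hpgd difference of delFG2 from the empty vector changed sign without empty vector array 1 (-0.14). It was 0.98 without empty vector array 2, the call given above for Hpgd. The number of arrays limits all of these, and no probe set has a detection call, so dim values carry no background estimate.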
